A study of Mus musculus with 2 samples.

Results

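The surface membrane of a muscle fibre, the sarcolemma, carries the action potential that starts contraction. Sodium channels fire it, chloride channels keep the resting membrane stable, and the sodium pump restores the sodium and potassium gradients after each burst. Loss of the chloride channel Clcn1 or altered gating of the sodium channel Scn4a causes inherited myotonia or periodic paralysis. The genes described here are Scn4a, the pore-forming alpha subunit of the muscle sodium channel, Scn4b, an accessory beta subunit, Clcn1, the muscle chloride channel, Atp1b1 and Atp1b2, beta subunits of the sodium pump, and Fxyd1 (phospholemman), a small membrane protein that regulates the pump. These 6 genes were named for this role in the membrane and were found by gene symbol. Each symbol matched 1 of the 55536 annotated genes, and together they hold 39 annotated transcripts.

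The series measured total RNA in the gastrocnemius, a calf muscle, of 2 B6Cast F1 mice. Both were males aged 25 days, and each gave 1 library from 300 ng of RNA, with ERCC spike-in RNAs added. The B6Cast F1 (B6CASTF1/J) mouse is a hybrid of C57BL/6J and CAST/EiJ parents. No treatment, transgene or second genotype is given in the labels, so the animals form 1 group. The labels number them as different males but list 1 shared donor entry. The libraries held 35098487 expected counts in animal 1 and 37428588 in animal 2. Levels are the deposited TPM (transcript abundance, corrected for length and scaled to a fixed total per library) of the first of 2 quantifications, and a pair of values stands for animals 1 and 2. TPM compares genes within a library. Ratios between the animals come from expected counts scaled by TMM. Nuclear protein-coding genes took 38.9% and 40.6% of all TPM, so levels rescaled over those genes alone are higher by a common factor in each animal.

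The labelled tissue matched its markers. All 11 fast fibre markers and all 10 slow fibre markers were detected (TPM of 1 or more in both animals), with summed levels of 93050 TPM in animal 1 and 88319 in animal 2 for the fast list, and 1501 in animal 1 and 2650 in animal 2 for the slow list. Of 6 cardiac markers, Nppa, Nppb and Myl7 were at 0 and Ryr2 and Tnni3 were below 0.2 TPM. Myh6 stood at 58.5 and 78.2 TPM, and at 26.8 and 33.9 TPM in the second quantification. It is a close paralog of the other myosin heavy chains, and whether it shared reads with them was not tested. None of 6 neuronal markers was detected, with a summed level of 0.70 and 0.69 TPM. In bulk tissue, fewer cells of a type and less RNA per cell cannot be told apart.

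Sequences are shown for the transcript differences described further on, with chloride channel splicing first. All lie on the coding strand, 5′ to 3′. The first pair sets the junction of exons 6 and 7 in the full-length transcript Clcn1-201 (chr6:42292999-42294097, plus strand, mm10, spliced) beside that of Clcn1-205, in which exon 7 begins 3 bases earlier. Capitals mark the added bases, which are the annotated stop codon of Clcn1-205.
Clcn1-201: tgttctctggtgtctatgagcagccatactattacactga
Clcn1-205: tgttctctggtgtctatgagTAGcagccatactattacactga

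The next stretch is exon 7a (chr6:42293444-42293522, 79 bases) as spliced to exon 7 in Clcn1-207. It is shown because inclusion of exon 7a is the known splicing change of Clcn1 in newborn mouse muscle and in mouse models of myotonic dystrophy. Capitals mark the annotated stop codon, which ends 20 bases into exon 7. The length of exon 7a leaves a remainder of 1 when divided by 3, so its inclusion moves the reading frame.
Clcn1-207: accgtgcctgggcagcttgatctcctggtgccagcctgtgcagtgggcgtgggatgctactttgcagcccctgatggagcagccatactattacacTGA

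The coding sequence of Fxyd1 is shown because 10 of its 17 annotated transcripts share it and differ outside it. It spans 279 bases with the stop codon, or 92 codons before the stop (chr7:31051965-31054366, minus strand, mm10, spliced). Capitals mark codons 29 to 32, phenylalanine, threonine, tyrosine and aspartate, the signature that gives the FXYD family its name.
Fxyd1: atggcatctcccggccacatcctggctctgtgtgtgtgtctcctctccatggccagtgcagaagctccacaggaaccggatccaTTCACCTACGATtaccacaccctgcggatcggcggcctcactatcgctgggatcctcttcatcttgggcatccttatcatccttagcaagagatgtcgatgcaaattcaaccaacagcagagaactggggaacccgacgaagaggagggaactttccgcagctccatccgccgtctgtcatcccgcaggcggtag

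The start of the short transcript Fxyd1-213 (chr7:31052164-31052193, minus strand, mm10) is shown because it takes a large share of Fxyd1 in the first quantification. Capitals mark the 16 bases found in no other Fxyd1 transcript. The remaining 239 of its 255 bases are shared with the coding transcript Fxyd1-212, and 70 of them are coding there.
Fxyd1-213: ATCTGTTCCTTTTTAGaactggggaacccg

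All 6 genes were detected, and Fxyd1 was the most abundant of them in both animals. Fxyd1 (chromosome 7, 31051678 to 31057199, mm10) had 500 TPM in animal 1 and 410 TPM in animal 2, which placed it at rank 67 and 96 of 22015 nuclear protein-coding genes. Atp1b2 (chromosome 11, 69599736 to 69605942) had 153 TPM in animal 1 and 143 in animal 2, at rank 275 and 316. Scn4a (chromosome 11, 106318592 to 106353288) had 117 TPM in animal 1 and 134 in animal 2, at rank 373 and 343. Neighbours in this order, Scn4b after Scn4a included, did not overlap in their values.

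Scn4b (chromosome 9, 45138395 to 45154152) had 66.0 TPM in animal 1 and 78.9 in animal 2. Atp1b1 (chromosome 1, 164437109 to 164458355) had 44.5 TPM in animal 1 and 69.7 in animal 2. Clcn1 (chromosome 6, 42286685 to 42315756) had 42.8 TPM in animal 1 and 45.4 in animal 2. The values of Atp1b1 overlapped those of both neighbours when pooled over the 2 animals. Within each animal Atp1b1 stood below Scn4b and above Clcn1. In the second quantification Atp1b1 also stood above Clcn1 in both animals. Its order with Scn4b changed there, with 77.2 against 88.7 TPM in animal 1 and 126.6 against 108.3 in animal 2. The place of Atp1b1 relative to Scn4b was therefore not resolved. The mean was 455 ± 63.6 TPM for Fxyd1, 148 ± 7.43 for Atp1b2, 126 ± 11.5 for Scn4a, 72.4 ± 9.12 for Scn4b, 57.1 ± 17.8 for Atp1b1 and 44.1 ± 1.85 for Clcn1 (SD, n = 2). The spread was widest relative to the mean in Atp1b1 and narrowest in Clcn1. In the second quantification Clcn1 and Atp1b2 were alike in this respect, at 63.3 ± 2.86 and 274 ± 12.3 TPM (SD, n = 2).

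**Figure D1:**
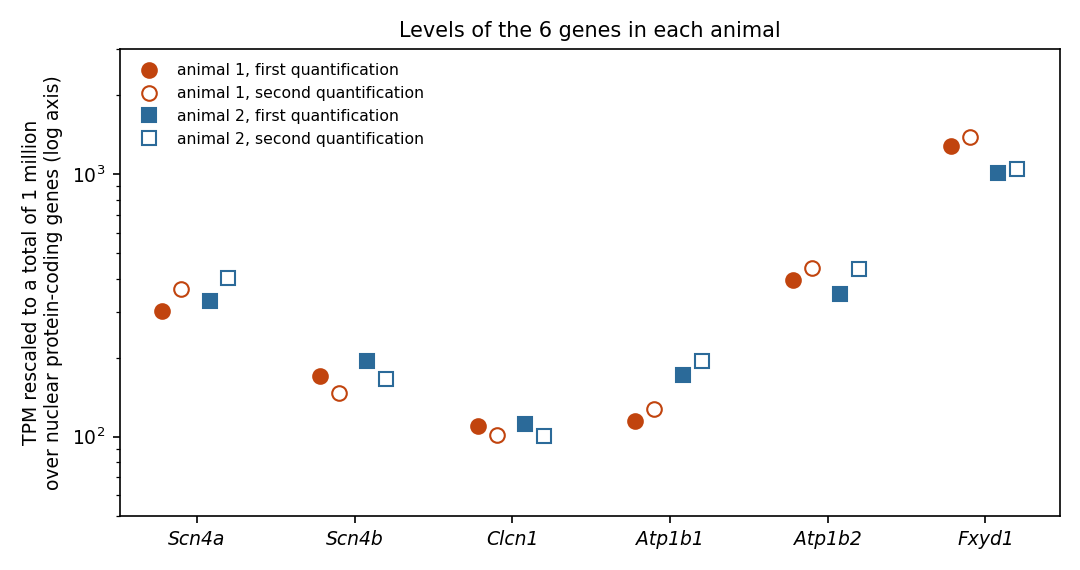
TPM rescaled to the full total over nuclear protein-coding genes (log axis) for each of the 6 genes, with circles for animal 1, squares for animal 2, filled symbols for the first quantification and open symbols for the second. Fxyd1 sits above the other 5 genes in both animals and both quantifications, and the level of Atp1b1 is lower in animal 1 in both.

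The second quantification, rescaled in the same way, kept Fxyd1 highest. Its mean over the animals was 1219 ± 240 for Fxyd1, against 1149 ± 196 in the first quantification (rescaled TPM, SD, n = 2). For the 6 genes the second value was 0.86 times (Scn4b) to 1.22 times (Scn4a) the first. Quantification therefore moved each level by less than the gaps between Fxyd1 and the other genes.

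Scn4a stood far above the other sodium channel alpha subunits analysed. It held 99.16% of the summed TPM of the 9 alpha subunit genes analysed here in animal 1 and 99.15% in animal 2. Of the other 8, none reached a mean of 1 TPM, and Scn9a and Scn10a, channels of sensory neurons, were listed at 0 in both animals.

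The level of Scn4a rests on its annotated transcripts. Scn4a-201, of 6598 bases, codes for the channel and had 65.6 TPM in animal 1 and 73.9 in animal 2. Scn4a-202 is a 443-base transcript with no coding sequence whose 2 exons lie wholly upstream of Scn4a-201, with 65 bases between them, and the annotation tags the gene as a fragmented locus. It received 4.02% of the Scn4a counts in animal 1 and 4.11% in animal 2 but, being short, 44.2% and 44.7% of the TPM. In the second quantification its share of TPM was 62.1% and 63.6%. Both libraries thus gave the same split, and the level per length of the coding transcript was lower than that of the gene as a whole.

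Scn4b, which in neurons supports the resurgent sodium current, stood above the beta subunit genes Scn2b and Scn3b, which stayed below 1 TPM. Scn2b had 0.72 TPM in animal 1 and 0.75 in animal 2. Scn3b had 0.59 TPM in animal 1 and 0.76 in animal 2. Scn4b has 1 annotated transcript, of 4982 bases. On the TPM scale the gene Scn4a stood at 1.78 and 1.70 times Scn4b. Over protein-coding transcripts alone this ratio was 0.994 and 0.937, so the higher level of Scn4a per length rested on Scn4a-202. Whether Scn4a-202 is part of the Scn4a messenger RNA cannot be told from these tables, which bears on the level, rank and ratios of the gene.

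Of 9 listed genes for proteins that bind, anchor or turn over sodium channels, 7 were detected. The ankyrin genes Ank3 and Ank2 had 33.1 and 31.3 TPM in animal 1, and 33.9 and 37.2 TPM in animal 2. Of the 7 that could be tested between the animals, only Ank2 passed at an adjusted p under 0.05, with a log2 ratio of -0.20 (animal 1 over animal 2), and 14.4% of all genes tested passed. Ank3 passed as well in the second quantification, with a log2 ratio of 0.07.

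Clcn1 was the most abundant CLC gene. It held 60.0% of the summed TPM of the 9 genes in each animal. Clcn4 and Clcn3, which in other cells act as chloride-proton exchangers of endosomes, had 10.3 and 9.95 TPM in animal 1, and 11.3 and 9.88 TPM in animal 2. Clcn7, of lysosomes, had 4.47 and 4.56 TPM, and Clcn6 and Clcn5, also endosomal, lay between 1.64 and 1.88 TPM. Clcn2, the broadly expressed plasma membrane channel, had 0.35 and 0.79 TPM and was not detected at the threshold of 1.

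**Figure D2:**
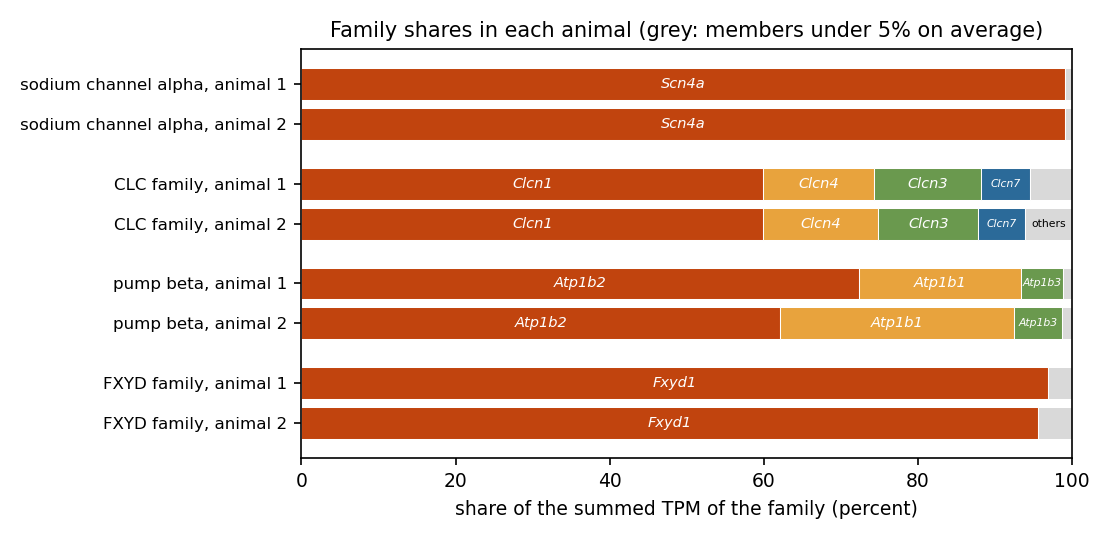
Share of the summed TPM of the genes analysed in each of 4 families (percent), with animal 1 above animal 2 in each pair of bars. Scn4a, Clcn1 and Fxyd1 lead their families, and Atp1b1 holds 21.02% of the beta subunits in animal 1 and 30.35% in animal 2.

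Clcn1 has 10 annotated transcripts, and the full-length coding Clcn1-201 took 52.0% of its TPM in animal 1 and 50.7% in animal 2. Clcn1-202, annotated as a processed transcript without coding sequence, took 35.2% in animal 1 and 37.7% in animal 2. It starts in exon 8 and runs 1100 bases past the end of Clcn1-201, where 445 bases overlap Fam131b on the opposite strand. Fam131b had 29 and 19 expected counts, against 1479 and 1783 for Clcn1-202. These counts are the split made by the quantification, and strand settings are not given. They therefore do not settle which gene the reads of the shared bases came from. The 6 transcripts annotated for nonsense-mediated decay together held 5.95% and 6.91% of the TPM in the first quantification, and 14.9% and 14.3% in the second.

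Exon 6 is part of 7 of the 10 transcripts, and the junction shown for Clcn1-201 was the common form. It made up 93.1% of the TPM of these 7 transcripts in animal 1 and 88.6% in animal 2. The 2 transcripts with exon 7a, Clcn1-207 and Clcn1-208, held 2.76% in animal 1 and 4.69% in animal 2. The 3 transcripts with the added bases, Clcn1-205, Clcn1-206 and Clcn1-208, held 4.89% in animal 1 and 7.07% in animal 2. In Clcn1-208, which also holds exon 7a, the annotated coding sequence runs on past these bases. The transcript that lacks exon 7, Clcn1-210, was at 0 in both animals.

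The second quantification gave the exon 7a transcripts 8.20% in animal 1 and 8.76% in animal 2, those with the added bases 3.50% and 6.65%, and Clcn1-210 4.43% and 2.22%. In both quantifications the form joined as in Clcn1-201 held most of the level, from 83.5% to 93.1%. These shares are estimates over whole transcripts and not counts of reads at the junction. Behind exon 7a stood 35.97 and 90.57 expected counts of Clcn1-207 and 15.7 and 8.93 of Clcn1-208.

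**Figure D3:**
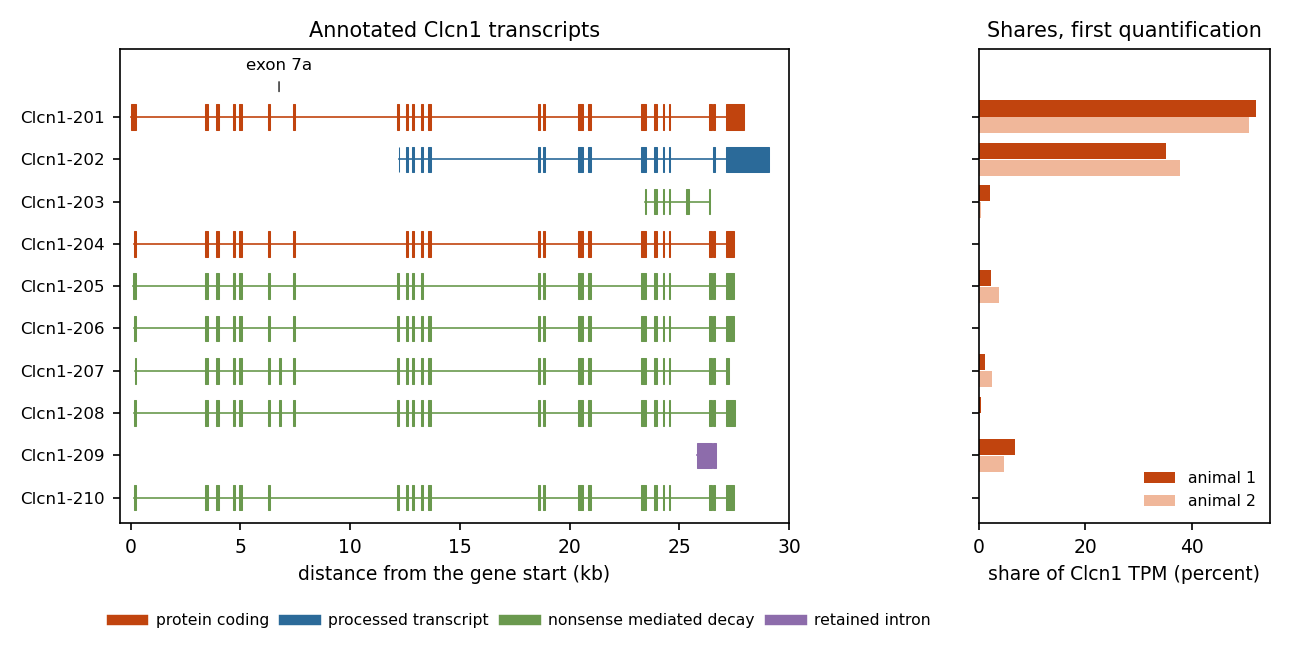
Exons of the 10 annotated Clcn1 transcripts against distance from the gene start (kb, left), coloured by annotation, and the share of Clcn1 TPM of each in the first quantification (percent, right), with animal 1 above animal 2. Clcn1-201 and Clcn1-202 hold most of the level, and the transcripts with exon 7a hold 2.47% or less each.

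The stretch before the start of Clcn1 is shown because, of the 5 genes with a RefSeq promoter entry, it was the only one with a match to any of 3 motifs searched on both strands in the 250 bases before the start. The motifs were the E-box CANNTG (bound by MyoD-type factors), TATAAA, and the MEF2 consensus. Capitals mark 3 CANNTG matches, beginning 125, 101 and 69 bases before the start, and 1 MEF2 match, beginning 51 bases before it, which contains the single TATAAA match. The sequence lies at chr6:42286435-42286684 on the plus strand (GRCm38.p6, from RefSeq).
Clcn1 upstream: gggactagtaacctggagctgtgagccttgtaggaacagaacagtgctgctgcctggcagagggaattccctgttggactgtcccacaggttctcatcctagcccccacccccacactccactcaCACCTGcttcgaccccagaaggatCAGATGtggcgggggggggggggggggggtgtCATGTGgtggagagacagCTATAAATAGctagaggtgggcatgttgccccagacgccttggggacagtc
Of 32851 mouse promoter entries of this length, 66.2% held at least 1 CANNTG, 12.2% held 3 or more, 12.4% held TATAAA and 0.508% held the MEF2 consensus. A match is a description of the letters and not a binding site. Of the Scn4a window, 186 bases lie within the span of Scn4a-202, and Fxyd1 transcripts start in several first exons. A lack of matches therefore describes the windows searched and not every start of these genes.

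The pump needs a catalytic alpha subunit, which moves the ions, and a beta subunit, which carries it to the membrane. Among the beta subunits, Atp1b2 held 72.4% in animal 1 and 62.1% in animal 2, and Atp1b1 held 21.02% in animal 1 and 30.35% in animal 2. Atp1b3 had 11.3 and 14.4 TPM, and Atp1b4, whose protein in placental mammals sits in the nuclear membrane of muscle, had 2.52 and 2.85 TPM.

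Atp1b2 thus exceeded Atp1b1 in both animals, by 3.45 times in animal 1 and 2.05 times in animal 2 on the TPM scale. In the second quantification the ratio was 3.44 and 2.24. Over protein-coding transcripts only, it was 3.26 in animal 1 and 1.87 in animal 2.

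Atp1b1-201, of 2580 bases, carried 86.3% of Atp1b1 in animal 1 and 90.7% in animal 2, and the shorter coding transcript Atp1b1-203 carried 9.35% and 7.04%. In the second quantification they carried 64.3% and 67.1%, and 32.1% and 30.3%. Coding transcripts together held over 95% of Atp1b1 in both. The last 617 bases of Atp1b1 overlap Nme7 on the opposite strand, which had 34 and 32 counts, with the same limit as for Fam131b. Atp1b2-201 carried 90.4% and 89.2% of Atp1b2 in animals 1 and 2 in the first quantification and 62.9% and 52.2% in the second. There the processed transcript Atp1b2-204, of 711 bases, took 19.7% in animal 1 and 27.8% in animal 2, and the short coding transcript Atp1b2-203 took 11.7% in animal 1 and 13.1% in animal 2.

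In animals 1 and 2 Fxyd1 held 96.9% and 95.7% of the summed TPM of the 7 FXYD genes. Fxyd6 had 9.60 and 12.2 TPM and Fxyd5 had 4.35 and 3.73 TPM. Fxyd2, the regulator of the kidney pump, was not detected.

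The animals also differed in the transcript Fxyd1-213, whose first bases are shown above. This retained-intron transcript had 177 TPM in animal 1 and 79.7 TPM in animal 2, or 35.4% and 19.4% of the gene, from 796 and 380 expected counts. In the second quantification it had 0 TPM in both animals. The 10 transcripts that share the printed coding sequence held, by the first quantification, 62.1% of Fxyd1 in animal 1 and 77.3% in animal 2. By the second they held 96.8% in animal 1 and 96.9% in animal 2. Over protein-coding transcripts in the first quantification, Fxyd1 had 311 TPM in animal 1 and 322 in animal 2.

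The Fxyd1 transcripts that share coding sequence differ in their first exon. Of the 13 transcripts that reach the first coding exon, 5 start in a proximal exon (chromosome 7, 31054673 to 31054819) and 6 in a distal exon (31055551 to 31055708). Beside the 10 that share the printed coding sequence, the 13 include the retained-intron Fxyd1-204 and Fxyd1-216. They also include Fxyd1-208, whose coding sequence is shorter. Fxyd1-208 and Fxyd1-216 belong to the distal group. The proximal group held 51.3% of the TPM of the 13 transcripts in animal 1 and 55.1% in animal 2. The distal group held 47.3% in animal 1 and 43.9% in animal 2. The second quantification gave the proximal group 48.5% in animal 1 and 27.4% in animal 2, and the distal group 47.2% in animal 1 and 64.0% in animal 2. Both groups were present in each case, but their order in animal 2 changed with the quantification.

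**Figure D4:**
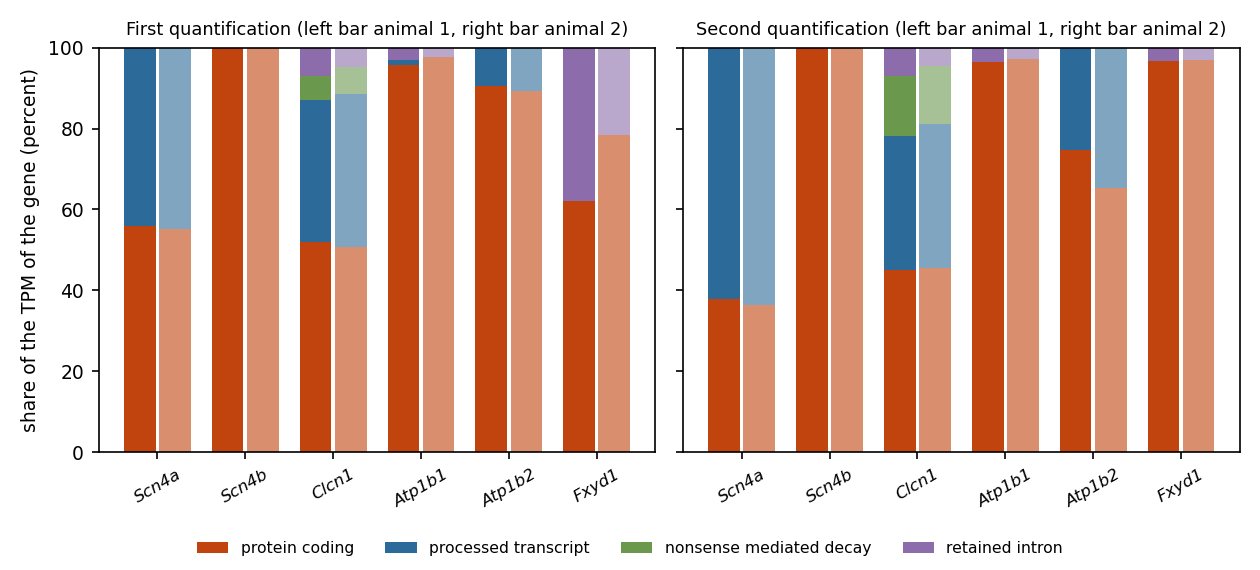
Share of the TPM of each gene by annotated transcript type (percent), for the first quantification (left) and the second (right), with animal 1 as the left, darker bar of each pair. The non-coding share of Scn4a is large in both quantifications, and the retained-intron share of Fxyd1 is 37.9% and 21.6% in the first but 3.22% and 3.09% in the second.

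The labels give 1 group, so the comparison made was that between the animals, as libraries. It was made by an exact conditional binomial test on the counts of each gene, two-sided, with Benjamini-Hochberg adjustment over the 14754 genes whose counts summed to at least 20. Its error is counting error alone. Treating the animals as the unit, with 1 value on each side, the smallest p that an exact two-sided test allows is 1. None of the 6 genes passed both an adjusted p under 0.05 and a 2-fold limit, against 1.8% of all genes tested (265 genes) and 0.506% of the 3756 nuclear protein-coding genes with a mean TPM of 10 or more, called expressed genes from here on. At an adjusted p under 0.05 alone, 2 were higher in animal 1, against 7.74% of all genes tested, and 3 were lower, against 6.64%. In either direction, 14.4% of all genes tested and 28.0% of expressed genes passed. The median log2 ratio was -0.03 over the 6 genes and 0.00 over all genes tested.

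Atp1b1 stood farthest apart of the 6. It had 2837 counts in animal 1 and 4897 in animal 2, a log2 ratio of -0.59 (95% counting interval -0.65 to -0.52; adjusted p = 6e-66, exact binomial test). Only 1.62% of expressed genes were as far apart or farther. Atp1b2 moved the other way, with 12009 counts in animal 1, 11772 in animal 2 and a log2 ratio of 0.23 (0.19 to 0.27; adjusted p = 5.2e-33, exact binomial test). A difference of that size was reached by 11.4% of expressed genes.

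Fxyd1 had 4809 counts in animal 1, 4714 in animal 2 and a log2 ratio of 0.23 (0.17 to 0.29; adjusted p = 2.6e-13, exact binomial test). Without its non-coding transcripts the ratio in the first quantification was 0.07 and no longer passed (adjusted p = 0.11, exact binomial test). This setting was chosen after the data were seen. In the second quantification the ratio of the gene was 0.25, and coding transcripts held 96.8% of Fxyd1 in animal 1 and 96.9% in animal 2. The drop therefore belongs to the transcript split of the first quantification. Scn4b had 9290 counts in animal 1, 11765 in animal 2 and a log2 ratio of -0.14 (-0.18 to -0.10; adjusted p = 1.6e-10, exact binomial test). Scn4a had 12809 counts in animal 1, 15307 in animal 2 and a log2 ratio of -0.05 (-0.09 to -0.02; adjusted p = 0.014, exact binomial test), and 65.1% of expressed genes were at least as far apart. Clcn1 had 3888 counts in animal 1, 4499 in animal 2 and a log2 ratio of -0.01 (-0.07 to 0.05; adjusted p = 0.94, exact binomial test), so its interval holds differences of either sign.

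These ratios are relative to the bulk of genes. Scaling by library totals moved the median log2 ratio of expressed genes to -0.11, and the genes apart by adjusted p alone were then 605 higher and 2936 lower in animal 1, against 1142 higher and 979 lower with TMM. Those over 2-fold were 112 higher and 172 lower, against 149 and 116. Under library totals Clcn1 passed, with a log2 ratio of -0.12 (adjusted p = 0.0015, exact binomial test), and the signs of the other 5 genes did not change.

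**Figure D5:**
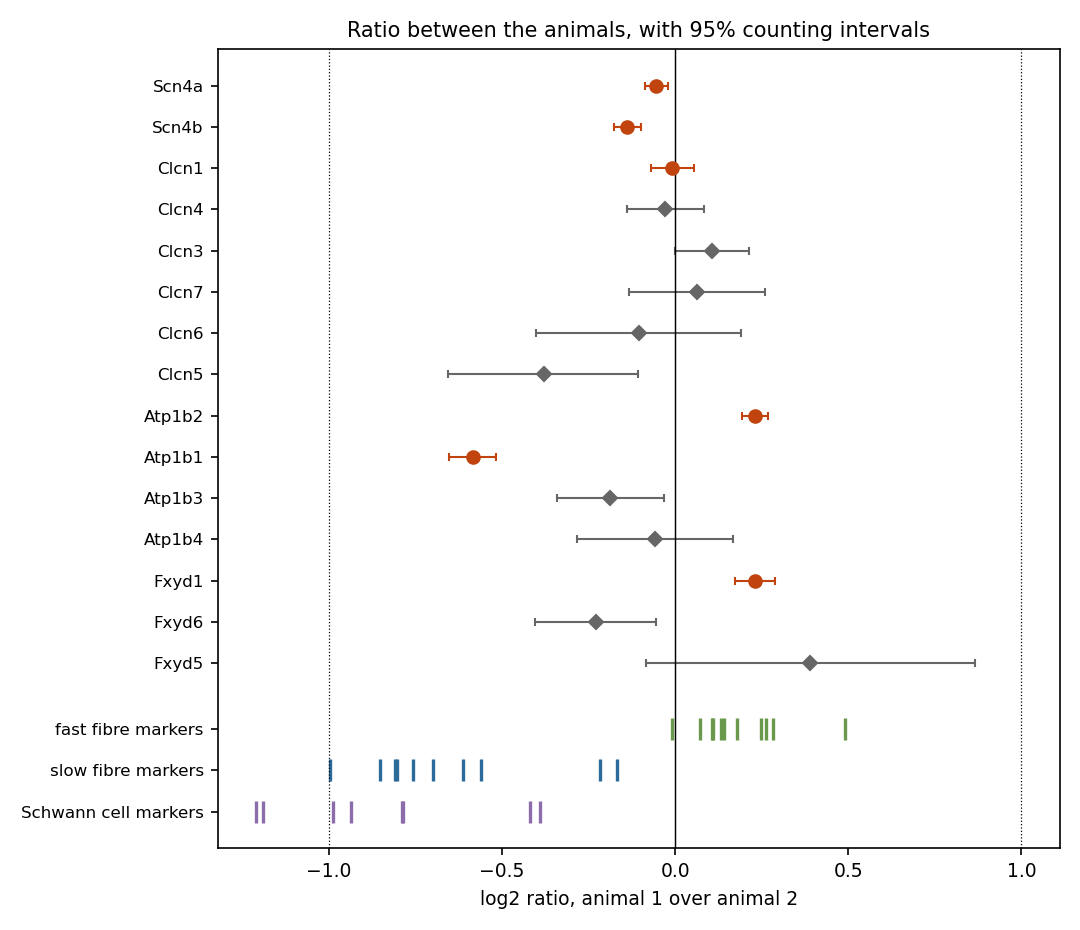
Log2 ratio of animal 1 over animal 2 with 95% counting intervals for the 6 genes (circles) and the other family genes at a mean TPM of 1 or more (diamonds), and a tick for each tested marker gene of the fast fibre, slow fibre and Schwann cell lists. Dotted lines mark 2-fold. Atp1b1 lies at -0.59, within the span of the slow fibre ticks, which run from -0.996 to -0.168, and of the Schwann cell ticks, which run from -1.21 to -0.39. It also lies within the spans of 2 lists not drawn, the endothelial (-0.748 to 0.460) and mural (-0.836 to 0.102) markers.

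Of the 9 other family genes analysed at a mean of 1 TPM or more, none was higher and 1 was lower in animal 1 at an adjusted p under 0.05. This was Clcn5, with a log2 ratio of -0.38. Clcn5 did not pass in the second quantification (log2 ratio -0.33, adjusted p = 0.072, exact binomial test), where Atp1b3 and Fxyd6 were lower. Under library totals all 3 of these were lower. Of 11 listed genes for other sodium transport, Slc8a3 was higher in animal 1, and the sodium-calcium exchanger Slc8a1 and the cotransporter Slc12a2 were lower, with log2 ratios of 0.22, -0.55 and -0.12. The remaining 8 did not pass, and under library totals none was higher and 4 were lower. For comparison with the counts under TMM, 14.4% of all genes tested and 28.0% of expressed genes passed in either direction.

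Marker genes of fibre and cell types also differed between the libraries. Beside the counts below, 7.74% of all genes tested were higher and 6.64% lower in animal 1 under TMM. All 10 slow fibre markers were lower in animal 1, and their median log2 ratio was -0.73. Of 11 fast fibre markers 10 were higher, with a median of 0.14, but under library totals 7 were higher and 2 lower. Myh7, the slow myosin heavy chain, had 230 TPM in animal 1 and 395 in animal 2. Of 8 Schwann cell markers, 3 were detected and 6 were lower in animal 1, 2 of them over 2-fold. These 2, Mal and Ncmap, were below the detection threshold in animal 1, with 0.76 and 0.58 TPM there. The summed level of the list was 38.4 TPM in animal 1 and 70.8 in animal 2. Pmp22, a membrane protein of peripheral nerve sheaths, had 18.4 TPM in animal 1 and 33.6 in animal 2. Of 6 fibroblast markers 5 were higher in animal 1 (4 under library totals), with summed levels of 1742 TPM in animal 1 and 1148 in animal 2. The difference in the sum lay mainly in Col1a1 and Col1a2, with log2 ratios of 1.01 and 0.91. Those of the remaining fibroblast markers lay between 0.12 and 0.21. Of 4 adipocyte markers 1 was detected, and 2 were higher in animal 1, 1 of them over 2-fold. The median log2 ratio was 0.94 over the adipocyte list, with summed levels of 11.6 TPM in animal 1 and 6.46 in animal 2. Of 7 endothelial markers 2 were lower in animal 1 (3 under library totals). Of 6 mural (vessel wall) markers 3 were lower (4 under library totals), and none of either list was higher. The part of fibre type, nerve, connective tissue, fat or vessels in the ratios of Atp1b1, Atp1b2 and Fxyd1 was not tested.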

How the data were processed

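Total RNA-seq tables of 2 gastrocnemius libraries were used as deposited, on mm10 with the GENCODE M21 annotation, per the descriptions deposited with the tables. Expected counts, which need not be whole, and TPM were computed by the authors per gene and transcript, in the columns RSEM writes per the file headers. The same deposited tables give each transcript's percent of its gene and interval bounds of TPM, kept here as a score and not used for any result. The second quantification is a deposited transcript table with estimated counts and TPM, and its column names are those of kallisto, per the file headers. Tool names, versions and strand settings are not given in the sources used. Overlapping genes on opposite strands, and paralogs that share reads, are therefore uncertain.

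Expected counts were rounded, TMM scaling came from edgeR 4.0.16 (R 4.3.3), and each gene was tested by an exact conditional binomial test (SciPy 1.17.1) with a prior count of 0.5 for ratios. A quasi-likelihood fit has no residual degrees of freedom with 1 library per animal, so p-values compare libraries and cover counting error only. DESeq2 1.42.0 size factors were an alternative, as were library totals, the second quantification, other filters and folds, and protein-coding transcripts only, which was added after seeing the data. The test was also run on simulated counts that held counting error only. Those counts had no variation between animals, so the run cannot show how the test behaves under such variation. Gene values of the second quantification are sums over transcripts. Sequences came from GENCODE M21 transcripts and from RefSeq promoters (GRCm38.p6). They are reference sequences and were not read from these hybrid animals. Differences between the parental alleles, in sequence or in the assignment of reads, were not examined. 5 of 6 genes had a promoter entry.

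All 6 genes are named with their values, family genes at a mean TPM of 1 or more are named, and marker lists are given as counts and sums. Some genes of these families and lists are not reported here, and shares, counts and sums were taken without them. The 6 genes and all lists were chosen with earlier results of these data known.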

Additional observations from a re-analysis of the deposited data

How the results depend on the processing

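No paired analysis was possible because the series has 1 group of 2 animals. The number of genes over 2-fold apart was 265, and 119 with a summed count of at least 100, where fewer genes were tested, and 547 at 1.5-fold. The number apart by adjusted p alone was 2121, and 3541 with library totals. The mean share of Scn4a among alpha subunits was 99.16%, and 99.31% in the second quantification, 97.73% from posterior mean TPM, 98.71% from expected counts and 98.75% over coding transcripts. Clcn1 held 60.0% of its family, and 59.2%, 57.8%, 53.2% and 46.9% in the second quantification, posterior mean TPM, expected counts (not corrected for length) and coding transcripts. Fxyd1 held 96.3%, and 95.4% from posterior mean TPM, 87.9% from expected counts and 95.4% over coding transcripts. In the second quantification the mean share of the transcript with the highest mean share in the first was 37.2% for Scn4a-201, 44.3% for Clcn1-201, 65.7% for Atp1b1-201, 57.6% for Atp1b2-201 and 0.0% for Fxyd1-213, against 55.5%, 51.4%, 88.5%, 89.8% and 27.4% in the first. Fxyd1-213 was highest in animal 1 only, with 35.4% in animal 1 and 19.4% in animal 2, where Fxyd1-203 held 28.8%. From posterior mean TPM, Clcn1-201 held 50.01%. The cause of these differences was not tested. The shares of Atp1b1 and Atp1b2 moved by less than the spread between the animals under every alternative run, no called ratio of the 6 genes changed sign, and leaving out either animal left all 6 detected. With 2 libraries, differences between animals and between library preparations cannot be told apart.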
